A study of Homo sapiens with 102 samples.

Results

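The genes described here supply amino acids and charged tRNAs to protein synthesis and include the transcription factor ATF4 with several of its targets. They were taken by matching Ensembl identifiers to gene symbols, and all 37 members were found among the 24965 genes of the count table. They comprise 20 tRNA synthetases, 3 enzymes of proline synthesis, 5 enzymes of serine synthesis and one-carbon metabolism, asparagine synthetase, 5 genes of the ATF4 group and 3 subunits of amino acid transporters. Membership followed known function, but PYCR1 and TARS3 had also been picked out on their counts in these libraries, PYCR1 for imatinib in both screens and TARS3 for trametinib in the dT screen. Those results are therefore given as descriptions with no test.

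K562 cells, an established human line from chronic myelogenous leukaemia with the BCR-ABL fusion, were enclosed singly in droplets with a pair of drugs and kept for 12 h. In this method, Combi-Seq, each drug of a pair brings a barcode fragment, and the ligated fragments prime reverse transcription at the poly(A) tail, so that a library is the pool of cells that met the same pair. DMSO (the solvent), Imatinib (an inhibitor of BCR-ABL), Trametinib (an inhibitor of MEK) and YM115 (the spelling of the labels for the compound that the study names YM155, an inhibitor of survivin expression) were combined in 16 ordered pairs, such as DMSO_Imatinib and Imatinib_DMSO, in each of 3 runs. The whole set was made in 2 screens, dT and Bio, which differed in which barcode fragment travelled with which injection source. Each screen also had 3 separate DMSO controls, which were not part of the pooled pairs. Every group was the same cell line, 1 genotype and 1 incubation time, and a difference between runs can be technical because the runs are repeats of the process. In pooled cells, fewer cells with a transcript and less transcript per cell cannot be told apart.

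An aminoacyl-tRNA synthetase joins an amino acid to its tRNA. When charged tRNAs run short, or when the unfolded protein response or heme shortage is sensed, phosphorylation of eIF2 lowers general translation while favouring translation of the ATF4 mRNA. ATF4 pairs with C/EBP factors on C/EBP-ATF response elements and raises transcription of synthetases, of enzymes for serine, proline and asparagine, and of amino acid transporters.

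To show where the core letters of that element stand near these genes, the 250 bases upstream of each RefSeq transcription start (build GRCh38.p14) were searched for TGATGNAA on both strands. A window was at hand for 28 of the 37 members, several with more than 1 start, and 6 of the 28 (21.4%) held a match, beside 3.89% of the 27305 genes with a window. The matches are printed 5′ to 3′ on the strand of the gene, with the matched letters in capitals.
GARS1: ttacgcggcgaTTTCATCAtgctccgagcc
ASNS: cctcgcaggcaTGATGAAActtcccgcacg
IARS1: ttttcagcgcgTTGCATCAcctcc
CHAC1: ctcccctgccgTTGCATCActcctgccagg
AARS1: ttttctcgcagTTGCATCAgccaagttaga
CEBPG: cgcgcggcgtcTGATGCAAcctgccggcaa

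These stretches lie at chr7:30594834-30594863 on the plus strand (GARS1), chr7:97872458-97872487 on the minus strand (ASNS), chr9:92293698-92293721 on the minus strand (IARS1), chr15:40953251-40953280 on the plus strand (CHAC1), chr16:70289675-70289704 on the minus strand (AARS1) and chr19:33374060-33374089 on the plus strand (CEBPG). ASNS and CEBPG carry the letters as written, and the other 4 carry their reverse complement. In the GENCODE v29 annotation the match lies in an untranslated exon for GARS1, ASNS, IARS1 and CHAC1, in an intron for CEBPG and upstream of the gene for AARS1. The match is a description of these letters only. Of the 6 genes, GARS1 and ASNS are among the 16 members seen in 50% or more of the in-screen dT libraries, and none of those tested for a drug term was called. CHAC1 was not tested in either screen, and ASNS, IARS1 and AARS1 were tested in dT alone.

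All 48 in-screen dT libraries and 44 of the 48 Bio libraries passed the limits of 1000 or more detected genes and no more than 15% mitochondrial counts. The 4 left out were the 3 Bio Imatinib_Imatinib libraries and run 1 of Bio DMSO_Trametinib, so Bio has 15 of the 16 pairs. Total counts ranged from 127042 to 759756 in dT and from 81806 to 780143 in Bio, and from 256671 to 458945 and from 35742 to 89347 in the separate dT and Bio controls. Of the 6 separate controls, 4 were above 15% mitochondrial counts and were kept. HBG2, a fetal globin that marks K562, had a count in 48 of 48 dT and 44 of 44 Bio libraries, and the erythroid factor GATA1 had one in 38 and 24. Of the markers of other cell types, CD3E and MS4A1 (T and B cells) had no in-screen count and LYZ (monocytes) had one in 1 Bio library. CD3D (T cells) had a count in 12 dT and 5 Bio libraries, EPCAM (epithelium) in 3 and 3 and KRT19 (epithelium) in 44 and 25, and their part in the results was not tested.

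Most members were present in some libraries of a condition and absent from others. An in-screen dT library held a count for 11 to 27 members (median 19), and an in-screen Bio library for 3 to 23 (median 10). The separate controls held more, 31 to 36 in dT and 27 to 29 in Bio. All 44 in-screen Bio libraries were deeper than the shallowest separate Bio control, which had 35742 counts. A detected member had on average 90.5 counts in the median in-screen dT library and 117 in the median Bio library, beside 46.7 and 11.4 in the median separate controls. The same held over all genes, with 96.0 and 120.5 counts per detected gene in the median in-screen libraries and 28.4 and 7.73 in the separate controls. In-screen libraries thus held fewer members with more counts each, and the part of this in the results below was not tested.

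**Figure D1:**
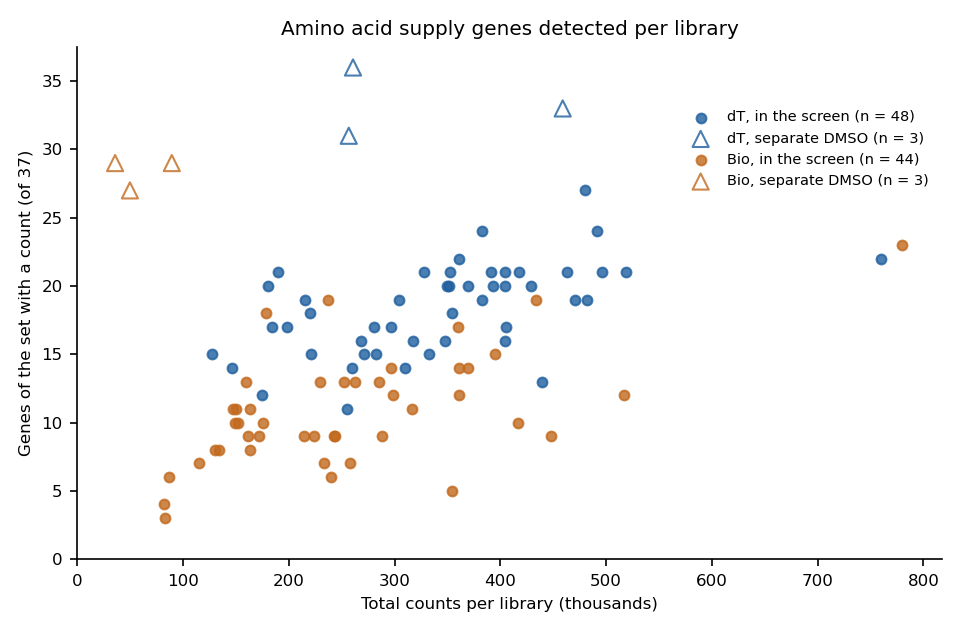
Genes of the set with a count (of 37) against total counts (axis in units of 1000) for each library used, with filled circles for in-screen libraries, open triangles for separate DMSO controls, blue for dT and orange for Bio. The separate controls sit at 27 to 36 genes, above or level with every in-screen library, of which the highest has 27.

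Summed over the 37 members, in-screen libraries and separate controls covered overlapping levels. The sum was 1983 to 10156 CPM (counts divided by the library total and multiplied by 1e6) in dT, with a median of 5503, and 1095 to 13536 CPM in Bio, with a median of 5391. The separate controls lay within those ranges, at 3358, 4286 and 6464 CPM in dT and 3716, 5505 and 9988 CPM in Bio. In dT, the 12 libraries with DMSO listed first had sums of 5853 to 10156 CPM (median 7294), and those with another drug listed first had medians of 4422 CPM for imatinib, 4523 CPM for trametinib and 4313 CPM for YM115, with highest values of 7452, 7362 and 7188 CPM. The ranges overlap, and the libraries with DMSO listed first also had the lowest depth, at 127042 to 270885 total counts (median 194175) beside medians of 338731, 356757 and 433582 for the other 3 drugs. In Bio the same medians were 6435, 5353, 4516 and 4227 CPM, and all 4 ranges overlapped.

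Of the 37 members, 16 were seen in 50% or more of the in-screen dT libraries. ATF4 and VARS1 had one in all 48, followed by GARS1 and SARS1 with 47, YARS1 with 46, FARSA with 45, TRIB3 with 44 and SLC3A2 with 43. At the other end, ALDH18A1 (the enzyme that makes the proline precursor from glutamate) had no count in any of 48 dT libraries, while the separate dT controls held 10, 0 and 42. NARS1 had 11 counts in all in 5 dT libraries, PSAT1 had 7 counts in 4, and CHAC1, a glutathione-degrading ATF4 target, had 95 counts in 4, of which 87 were in run 3 of Trametinib_DMSO. A count from 1 or few libraries is the usual form of the data for such genes, and 3 of 48 libraries held 60.5% of the counts of FARSB, 79.2% of those of TARS1 and 96.2% of those of HARS1.

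**Figure D2:**
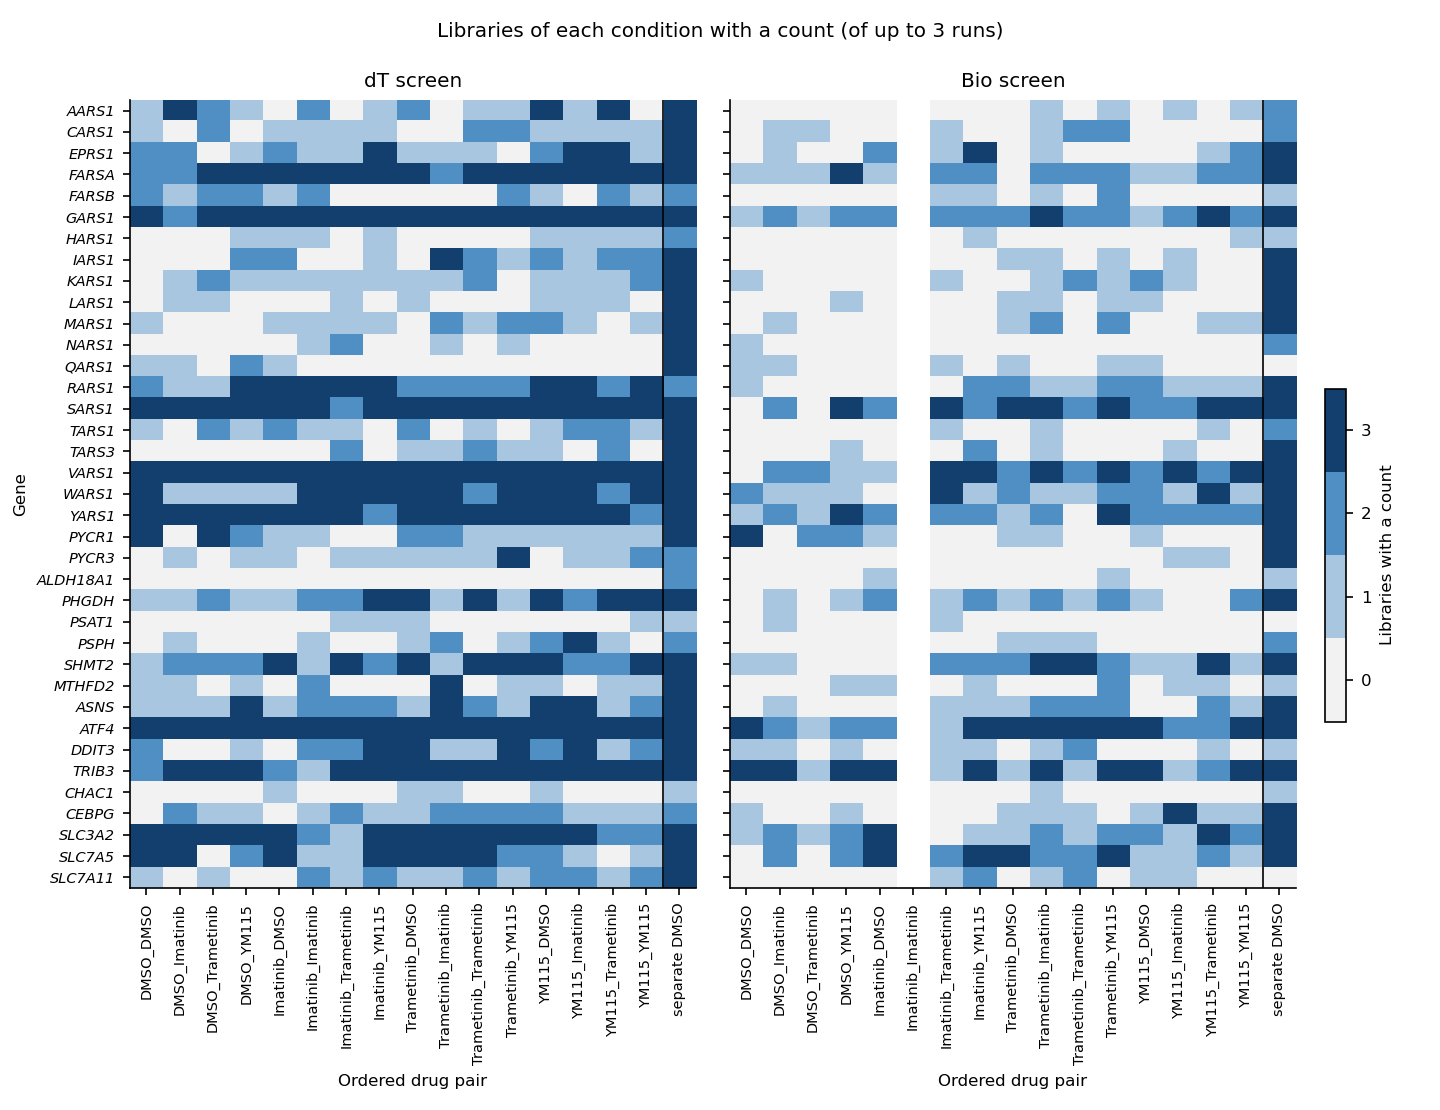
Number of libraries with a count, from 0 (palest) to 3 (darkest), for each gene (rows) in each ordered pair and the separate DMSO controls (columns), in dT and Bio; the white column in Bio is Imatinib_Imatinib, whose 3 libraries were left out. ATF4 and VARS1 are dark across dT, ALDH18A1 has a count only in the separate controls there, and Bio is paler for most genes.

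Drug effects were first asked of each drug over all pairs, with a term for each drug and the run as a block. The filter on low counts left 28 members in dT and 17 in Bio, so 9 and 20 members had no test of a drug term. At an adjusted p under 0.05 (edgeR's quasi-likelihood test, adjusted over all genes tested), 2 of 28 members were called for imatinib in dT, FARSB and PYCR1, against 2.88% of all 3930 genes. For trametinib the number was 1 of 28, TARS3 (1.37% of all genes), and for YM115 it was 0 of 28 (2.62% of all genes). In Bio, 1 of 17 members was called for each drug, PYCR1 in all 3 cases, against 2.34%, 1.94% and 2.74% of 1754 genes. Since PYCR1 and TARS3 were chosen on the imatinib and trametinib contrasts, nothing is read from those counts. For YM115 in dT, 7 of 28 members had an unadjusted p under 0.05, beside 14.3% of all genes. DESeq2's Wald test and limma also called 0 members for YM115 in dT, beside 3.69% and 0.28% of all genes (DESeq2 gave an adjusted p for 19 of the 28). The median log2 fold change of the tested members was 0.16, -0.0023 and 0.37 for imatinib, trametinib and YM115 in dT, where that of all genes was 0.067, 0.23 and 0.21.

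Among the synthetases, FARSB, the beta chain of phenylalanyl-tRNA synthetase (chromosome 2, 222570536 to 222656337), had the lowest estimate for imatinib in dT. In the 21 libraries with imatinib it had 8 counts in all and at most 3 in any library (0 to 8.13 CPM, median 0, mean 1.20 CPM ± 2.66 SD). In the 27 without imatinib it had 1073 counts, with 0 to 1083 CPM (median 0, mean 151 CPM ± 290 SD) and a count in 12. Both medians were 0 and the groups overlap, since 15 libraries without imatinib also lacked a count. The fitted log2 fold change was -7.74 ± 1.50 (SE), a size that rests on the 8 counts with imatinib. FARSB passed the low-count filter through the libraries without imatinib, so its term is given with no test. It was not among the genes left by the 50% filter. The term was not past the threshold when only DMSO_DMSO and the single-drug pairs were used, where 0.0427% of all genes were called. Nor was it in limma, where 0% were called. With 1 run left out, the log2 fold change was -7.86 to -7.44.

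FARSB was not carried by all pairs that lacked imatinib. DMSO_Trametinib held 0, 199 and 250 counts in runs 1 to 3, DMSO_YM115 held 89, 35 and 0, YM115_DMSO held 0, 0 and 205, and Trametinib_DMSO and Trametinib_Trametinib held 0 in all runs. FARSA, the alpha chain of the same enzyme, was not called, with a log2 fold change of -0.09 ± 0.61 (SE) for imatinib, -0.55 ± 0.68 for YM115 and 0.29 ± 0.69 for trametinib. FARSA had a count in 45 of 48 dT libraries against 16 for FARSB. In Bio, where FARSB was below the filter for drug terms, its counts sat in 5 libraries, 371 of 701 of them in run 2 of Trametinib_Imatinib.

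TARS3 (chromosome 15, 101653598 to 101724604, listed as TARSL2 in GENCODE v29), a cytoplasmic threonyl-tRNA synthetase related to TARS1, was chosen for its counts with trametinib in dT. It was seen in 9 of 21 libraries with trametinib (0 to 169 CPM, median 0) and in 1 of 27 without (0 to 4.17 CPM, median 0). The summed counts were 194 and 2. Run 1 of Trametinib_Trametinib alone held 83 of the 194 counts, and without run 1 or run 2 the gene was below the low-count filter. In Bio there was a count in 1 of 20 libraries with trametinib (365 counts or 468 CPM, in run 2 of Trametinib_Imatinib) and in 4 of 24 without. The highest Bio level was in 1 of those without trametinib, an Imatinib_YM115 library with 267 counts (597 CPM). In the separate controls TARS3 had 3, 7 and 5 counts in dT and 1, 5 and 3 in Bio, so that all 6 held it at a low level.

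The 8 synthetases seen in 50% or more of the dT libraries showed no called drug term. VARS1, for valine, had log2 fold changes of -0.43 ± 0.52 (SE) for imatinib, -0.10 ± 0.53 for trametinib and 0.40 ± 0.58 for YM115. SARS1, for serine, had 0.09 ± 0.58, 0.24 ± 0.55 and 0.10 ± 0.54 in the same order. GARS1, for glycine, had 0.68 ± 0.85, 0.53 ± 0.87 and 0.33 ± 0.78. In these 3 abundant genes no estimate exceeded its standard error. RARS1, for arginine, had 0.86 ± 1.01, -0.56 ± 0.85 and 0.30 ± 1.04. YARS1, for tyrosine, had -1.25 ± 0.64, -1.60 ± 0.67 and 0.24 ± 0.67, with an adjusted p of 0.267 for trametinib (edgeR). WARS1, for tryptophan, had 0.04 ± 1.17, 1.81 ± 1.32 and 2.54 ± 1.42. EPRS1, which charges both glutamate and proline tRNAs, had -0.13 ± 1.36, -2.74 ± 1.26 and 3.00 ± 1.45, and its last 2 values had edgeR adjusted p-values of 0.335 and 0.324. The standard errors of RARS1, WARS1 and EPRS1 were about as large as a 2-fold change (1 on the log2 scale) or larger. The lowest standard error here was 0.52, for VARS1, and YARS1 at -1.60 was not called. The lack of a call therefore does not exclude a 2-fold change in any of the 8.

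**Figure D3:**
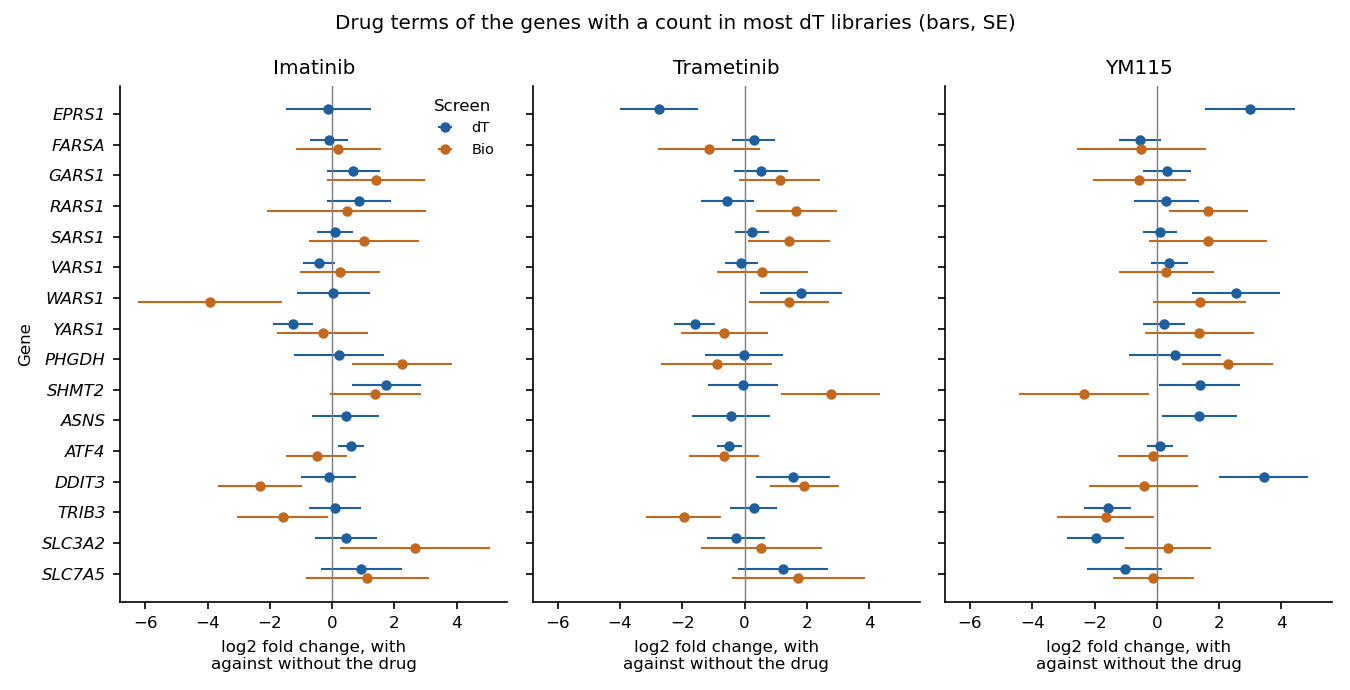
Log2 fold change with against without each drug (points) with its standard error (bars) for the 16 genes seen in 50% or more of the in-screen dT libraries, in dT (blue) and, where tested, in Bio (orange). None of these estimates was past the threshold, and the Bio bars are longer than the dT bars for most genes.

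PYCR1 (chromosome 17, 81932384 to 81942412), the mitochondrial enzyme of the last step of proline synthesis, was the member chosen for imatinib. In DMSO_DMSO it had 238, 710 and 359 counts in runs 1 to 3 of dT (2401 CPM ± 1468 SD, n = 3) and 701, 279 and 162 counts in Bio (3324 CPM ± 2403 SD, n = 3). In DMSO_Imatinib it had 0 counts in all 6 libraries. With imatinib in any position, dT had 0 to 462 CPM (median 0, a count in 5 of 21 libraries) and Bio had 0 to 748 CPM (median 0, a count in 2 of 18). DMSO_DMSO therefore does not overlap the imatinib libraries in either screen. The separate DMSO controls do overlap them in both, at 210 to 506 CPM in dT and 291 to 951 CPM in Bio.

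PYCR1 was also at or near 0 in most pairs that held no imatinib. DMSO_Trametinib was the other pair with a high level, at 702, 152 and 338 counts in dT and 15 and 389 counts in the 2 Bio libraries used. DMSO_YM115 was uneven, at 2, 65 and 0 counts in dT and 0, 194 and 282 in Bio. With the drug listed first instead, Trametinib_DMSO had 4, 0 and 34 counts in dT and 177, 0 and 0 in Bio, and YM115_DMSO had 134, 0 and 0 in dT and 1, 0 and 0 in Bio. YM115_YM115 had 1 count in 3 dT libraries and none in Bio, and Trametinib_Trametinib had 37, 0 and 0 in dT and none in Bio. Imatinib_DMSO had 1, 0 and 0 counts in dT and 182, 0 and 0 in Bio, where DMSO_Imatinib had none. The dT libraries with DMSO listed first also had the lowest median depth, and the part of depth in these values was not tested.

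The fitted log2 fold changes of PYCR1 for trametinib and YM115 were -6.38 ± 1.77 (SE) and -6.95 ± 1.96 in Bio and 1.18 ± 1.11 and -3.56 ± 1.24 in dT. They are read against the same DMSO_DMSO libraries as the imatinib term that chose the gene, so they are given with no test. In Bio, trametinib was not past the threshold without run 1, run 2 or run 3, and YM115 was not without run 1 or run 3. The imatinib term of PYCR1 in Bio was not past it without run 2 or run 3, or in DESeq2's Wald test. The separate controls had 132, 54 and 108 counts in dT (317 CPM ± 164 SD, n = 3) and 34, 26 and 19 in Bio (541 CPM ± 358 SD, n = 3), below the lowest DMSO_DMSO library of their screen. PYCR1 was thus detected in all 12 DMSO-only libraries.

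**Figure D4:**
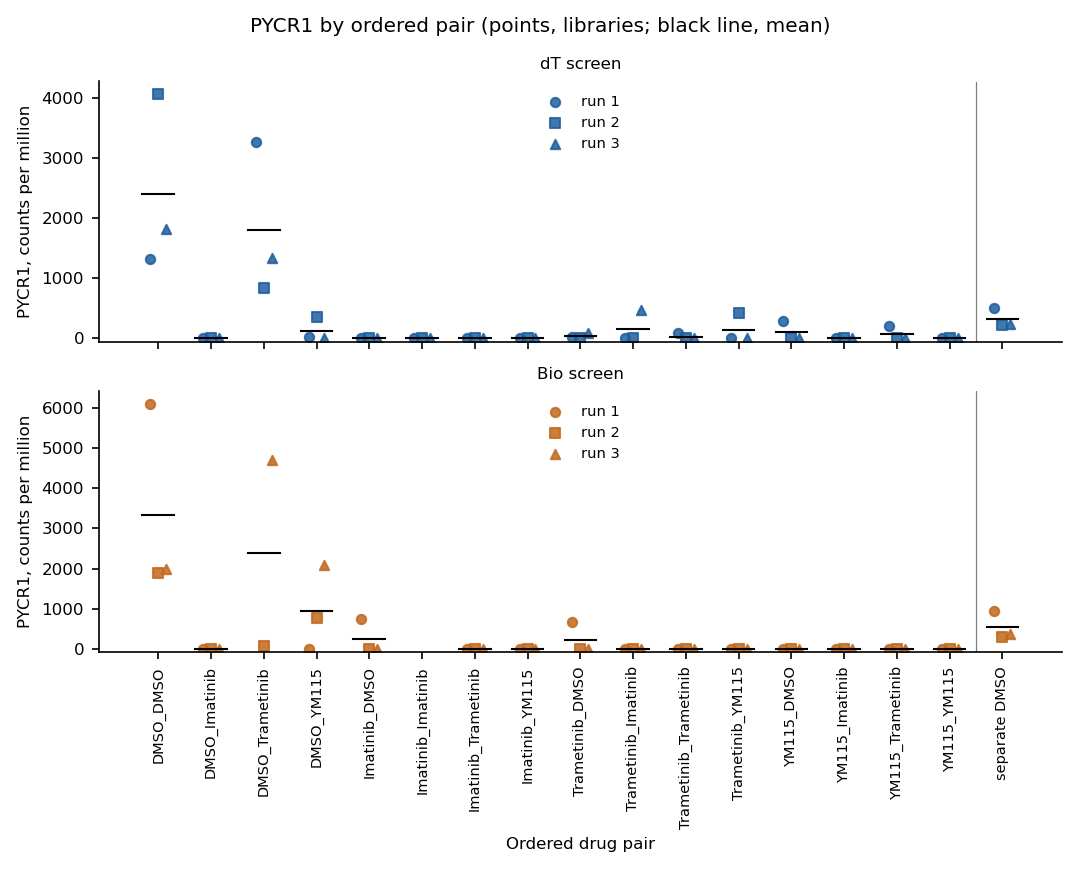
PYCR1 in CPM (linear axis) by ordered pair and in the separate DMSO controls, in dT (top) and Bio (bottom), with a symbol for each run and a black line at the mean. DMSO_DMSO and DMSO_Trametinib stand highest in both screens, DMSO_Imatinib is at 0, and most other pairs have at most 1 run above 0.

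The other proline enzymes were sparse. PYCR3, the cytosolic relative of PYCR1, had a count in 15 of 48 dT and 2 of 44 Bio libraries, and its dT terms were not called. ALDH18A1, upstream of both, had 8 counts in 2 Bio libraries besides its 0 in dT. Of the serine and one-carbon enzymes, PHGDH, which opens serine synthesis, had log2 fold changes of 0.23 ± 1.44 (SE), -0.02 ± 1.24 and 0.57 ± 1.47 for imatinib, trametinib and YM115 in dT. SHMT2, the mitochondrial hydroxymethyltransferase, had 1.74 ± 1.11, -0.06 ± 1.12 and 1.37 ± 1.29. Neither enzyme had a called term. PSAT1 and PSPH, the later steps of serine synthesis, and MTHFD2 of the mitochondrial folate pathway were below the filter for drug terms in both screens, with a count in 4, 12 and 12 dT libraries. ASNS, which makes asparagine, had 0.44 ± 1.08, -0.43 ± 1.25 and 1.36 ± 1.20 in dT.

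ATF4 itself had the smallest standard errors of the regulators in dT. In dT its level was 74.5 to 1754 CPM (median 544) with imatinib and 3.01 to 853 CPM (median 428) without, and the log2 fold change was 0.59 ± 0.42 (SE), with -0.48 ± 0.41 for trametinib and 0.10 ± 0.42 for YM115. Among single pairs, Imatinib_Imatinib had the highest dT mean, with 188, 556 and 347 counts in runs 1 to 3, and its Bio libraries were left out. In Bio, ATF4 in DMSO_DMSO was 922, 1174 and 1161 CPM in runs 1 to 3, above the separate controls at 168, 436 and 542 CPM, and DMSO_Trametinib had 2 and 0 counts in the libraries used.

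TRIB3, a pseudokinase target of ATF4 that also restrains it, had log2 fold changes of 0.08 ± 0.83 (SE) for imatinib, 0.30 ± 0.76 for trametinib and -1.57 ± 0.76 for YM115 (edgeR adjusted p = 0.324) in dT. Its highest pair in both screens was DMSO_Imatinib, with 353, 656 and 418 counts in dT and 785, 358 and 2 in Bio. The same drugs listed the other way gave 84, 5 and 0 counts in dT and 3, 2 and 176 in Bio. DDIT3, which encodes the stress factor CHOP, had -0.11 ± 0.88, 1.54 ± 1.19 and 3.43 ± 1.42 (YM115 adjusted p = 0.224). Its end overlaps that of MARS1, which lies on the opposite strand, and reads of the pair cannot be told apart if strand was not used in counting. CEBPG, a C/EBP partner of ATF4, had a count in 20 of 48 dT and 11 of 44 Bio libraries and no called drug term.

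The transporter subunits differed in how steadily they were seen. SLC3A2, the heavy chain shared by several amino acid transporters, was seen in 43 of 48 dT libraries and had log2 fold changes of 0.44 ± 0.99 (SE), -0.28 ± 0.94 and -1.97 ± 0.93 for imatinib, trametinib and YM115 (YM115, edgeR adjusted p = 0.310). Its highest pair in both screens was Imatinib_DMSO, at 810, 773 and 584 counts in dT and 1128, 14 and 75 in Bio. SLC7A5, the light chain that carries leucine and other large amino acids, had 0.94 ± 1.30, 1.24 ± 1.44 and -1.03 ± 1.20. SLC7A11, the cystine transporter subunit, had a count in 19 of 48 dT and 8 of 44 Bio libraries.

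SLC7A5 had different levels when the same drugs were listed in the other order. With trametinib listed first it was seen in 11 of 12 dT libraries (0 to 737 CPM, median 235) and in 10 of 12 Bio libraries (0 to 2513 CPM, median 446). With trametinib listed second the counts were in 4 of 12 dT libraries (median 0) and 6 of 11 Bio libraries (median 4.12 CPM), including Trametinib_Trametinib, which is in both groups. Libraries with trametinib first had medians of 4138 detected genes in dT and 2495 in Bio, beside 3622 and 1636 with it second. Median total counts were 356757 and 338414, beside 393484 and 175540. The part of these differences in the SLC7A5 values was not tested. Trametinib_DMSO had 129, 107 and 40 counts in dT and 346, 109 and 212 in Bio. DMSO_Trametinib had 0 in all libraries of both screens. Imatinib listed first was seen in 8 of 12 dT libraries (median 20.4 CPM) and 8 of 9 Bio libraries (median 499 CPM), and DMSO listed second in 11 of 12 (median 107 CPM) and 7 of 12 (median 247 CPM). These groups of libraries were compared after their values were seen, and the ranges overlap because both include libraries at 0. DMSO_DMSO had 2, 53 and 2 counts in dT and 0, 0 and 0 in Bio, whereas the separate controls had 171, 76 and 31 and 24, 18 and 29.

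**Figure D5:**
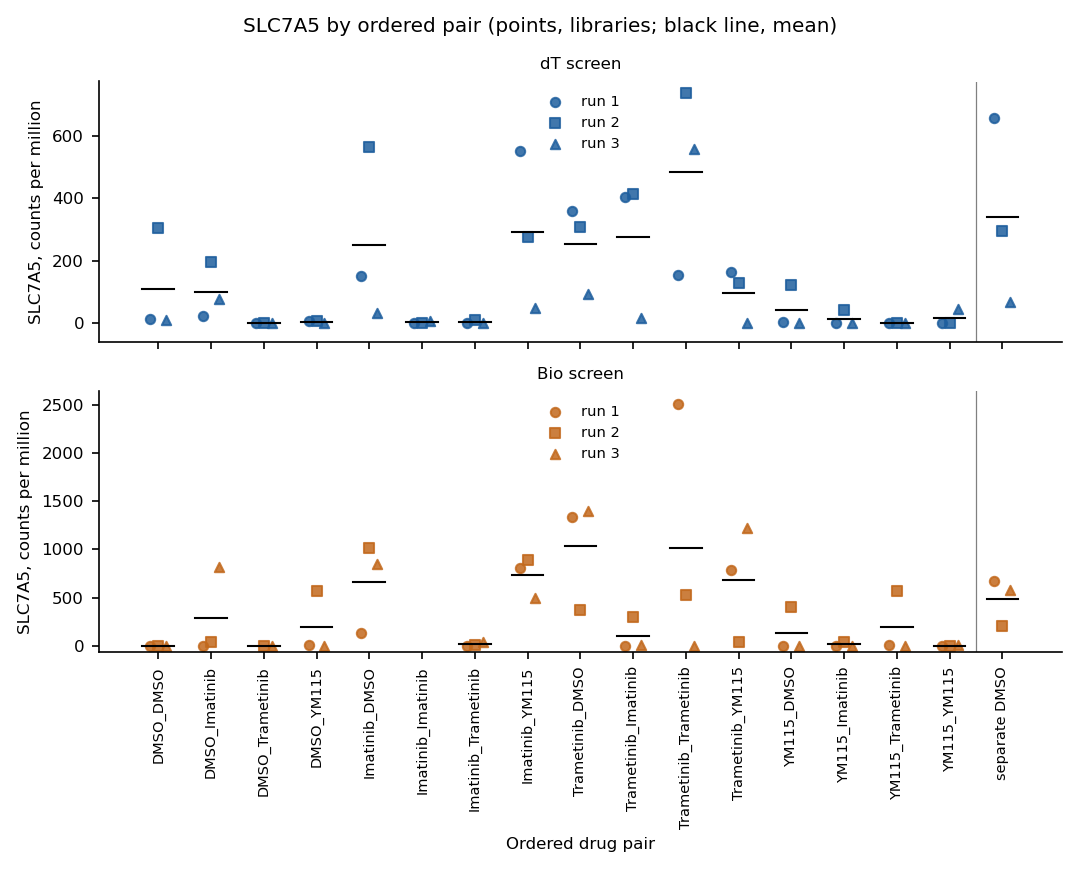
SLC7A5 in CPM (linear axis) by ordered pair and in the separate DMSO controls, in dT (top) and Bio (bottom), with a symbol for each run and a black line at the mean. The pairs with trametinib listed first have a mean of 96.7 to 484 CPM in dT, and DMSO_Trametinib is at 0 in both screens.

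A second question was whether a member varied among the ordered pairs at all, position included. In dT this joint test called 1 of 31 members, PYCR1, against 0.303% of 6263 genes, and 11 of 31 had an unadjusted p under 0.05 beside 48.4% of all genes. In Bio it called 7 of 28 members, against 22.9% of 4888 genes: FARSB, CARS1, PYCR1, PSAT1, ASNS, CEBPG and SLC7A5. The Bio share is close to that of all genes. PYCR1 was chosen on its values. Of the 44 Bio libraries, FARSB had a count in 5, CARS1 in 8, CEBPG in 11, ASNS in 13 and SLC7A5 in 27. These members and PSAT1 passed the low-count filter through the libraries that held counts, so their calls are given with no test. Several of these rest on single libraries. PSAT1 had a count in 2 of 44 Bio libraries (271 and 105 counts), and 671 of the 1155 Bio counts of ASNS were in run 1 of DMSO_Imatinib. Without any 1 run, the 6 besides PYCR1 were no longer called. The share of all genes called in Bio then fell to 0.41%, 0.167% and 0.482% without run 1, 2 and 3. Without the run as a block, 7 of 31 members were called in dT, beside 35.8% of all genes, and 15 of 28 in Bio, beside 70.7%.

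Whether the order of the pairs was alike in the 2 screens was described by Spearman's rho over the mean CPM of 15 pairs, for the 2233 genes seen in 25% or more of the libraries of both screens. The 2 screens share no library. The median over the 17 such members was 0.24, beside 0.11 over all 2233 genes. PYCR1 had 0.69, ATF4 0.60, SLC7A5 0.59, SLC3A2 0.54 and VARS1 0.48, and these 5 were above the 90th percentile of all genes, which was 0.46. PYCR1 was chosen for a pattern seen in both screens, so its value restates that choice. At the other end CEBPG had -0.50 and RARS1 -0.28, so the values of the members ran from -0.50 to 0.69. The mean total counts of the pairs were themselves alike, with a rho of 0.43, and the summed member CPM had 0.56.

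The drug terms were then compared between screens. The product of drug and screen was past the threshold for 2 of 30 members for imatinib (5.84% of 4705 genes), 2 for trametinib (4.59%) and 1 for YM115 (6.59%). FARSB was past the threshold for all 3 drugs, with Bio minus dT differences of 11.63 ± 2.13 (SE), 9.53 ± 1.62 and 6.56 ± 1.70 on the log2 scale. It was below the filter for drug terms in Bio, and its dT counts lay almost wholly in libraries without imatinib. The 3 differences share those dT libraries, so they are not separate results and are given with no test. FARSB had no count in Bio DMSO_DMSO and at most 3 in dT imatinib libraries, so the sizes depend on the constant added to near-empty groups. The YM115 difference of FARSB was not past the threshold without run 1 or run 3. Nor was it with the 4 left-out Bio libraries put back (2.63 on the log2 scale). TARS3 had 6.22 ± 1.61 for imatinib and fell below the low-count filter without run 1 or run 2, and PYCR1 had -7.39 ± 2.05 for trametinib and was not past the threshold without run 1 or run 3. TARS3 and PYCR1 were chosen on counts in these libraries, so their differences are also given with no test. No difference between screens was called in limma or from the single-drug pairs alone. Over all genes these called 0% and 0.0184% for each drug.

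The separate controls were set against in-screen DMSO_DMSO of the same screen. No member passed the threshold in dT (0 of 32, against 0.116% of 6917 genes) or in Bio (0 of 31, against 0.0487% of 6158 genes), in edgeR's quasi-likelihood test, the only tool run on this contrast. At an unadjusted p under 0.05 there were 7 of 32 and 5 of 31 members, beside 16.1% and 10.0% of all genes. The median log2 fold change of the members, separate over in-screen, was 1.47 in dT and 5.06 in Bio, where that of all genes was 3.39 and 5.34. By counts, 28 of 37 members were present in all 3 separate dT controls and 23 in all 3 separate Bio controls.

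Of 60 related genes, namely mitochondrial synthetases, other amino acid enzymes and transporters, the eIF2 kinases and phosphatase subunits, further stress-response genes and the scaffold of the synthetase complex, 59 were in the table. None of the 19 tested in dT was called for a drug, beside 2.88%, 1.37% and 2.62% of all genes for imatinib, trametinib and YM115. In Bio 1 of 12 was called for YM115, beside 2.74% of all genes, and none for imatinib or trametinib, beside 2.34% and 1.94%. The 1 called was SESN2, a stress-induced regulator of mTORC1, with 6.86 ± 1.56 (SE, edgeR adjusted p = 0.00588). SESN2 was not called without run 2, in limma or from the single-drug pairs alone, where 2.47%, 0.57% and 0% of all genes were called. Between screens, 1 of 30 was called for imatinib (AIMP1, a scaffold protein of the synthetase complex, lower in Bio), beside 5.84% of all genes. For trametinib none was called, beside 4.59%. For YM115 3 were called, beside 6.59% (SESN2 and the heme-regulated kinase EIF2AK1 higher in Bio, AIMP1 lower). None of these differences was called in limma or from the single-drug pairs alone, where 0% and 0.0184% of all genes were called for each drug. The joint test of pairs called none of 33 in dT, beside 0.303% of all genes. In Bio it called 7 of 29 (ASL, ATF3, EIF4EBP1, HSPA5, SESN2, SLC7A1 and XBP1), beside 22.9% of all genes. When any 1 run was left out it called 0 in Bio, where 0.167% to 0.482% of all genes were called.

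Reads of some members could also come from other loci. Of the 37 members, 12 overlap another gene with counts in the GENCODE v29 annotation, such as YARS1 with S100PBP and KARS1 with TERF2IP. Of the pseudogenes named for a member, those with the most counts over all in-screen libraries were PSPHP1 with 202, ASNSP1 with 122 and ATF4P3 with 27. PSPH itself had fewer than PSPHP1, at 103 counts in dT and 11 in Bio, while ASNS had 965 and 1155. PYCR1 overlaps annotated genes with no counts.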

How the data were processed

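K562 cells were measured by 3′-end sequencing after 12 h with drug pairs. The deposited values were raw read counts per gene, made by the authors; STAR 2.4.2a and GRCh38 are named in the submitters' processing notes, the strand setting is not given in the sources used here, and reads were not collapsed to molecules, so that reads are not independent molecules. Of 102 libraries, in-screen ones with fewer than 1000 detected genes or above 15% mitochondrial counts were left out. The table held 127042 to 759756 counts per used in-screen dT library and 81806 to 780143 per used Bio library, which leaves low genes with few counts.

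All genes were fitted together by the quasi-likelihood test of edgeR 4.0.16 (R 4.3.3), after filterByExpr and TMM scaling (run as a block as in the design, Benjamini-Hochberg adjustment over all genes tested, called at an adjusted p under 0.05). Models were additive terms of the 3 drugs, their products with screen, a joint test of ordered pairs, and separate against in-screen DMSO. The p-values of drug terms count the 3 libraries of an ordered pair as separate samples; nothing says that runs came from separate cultures. DESeq2 1.42.0 and limma 3.58.1 were alternatives, as were other scaling, filters, no block, single runs left out, single-drug pairs and the left-out libraries. The fit was tested on simulated counts with the same spread for every gene and no run effect. Those counts did not copy the uneven filling of libraries seen here, so nothing is read from that test about calls of sparse members.

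Same-numbered runs were the same repeat of the process per the labels; the median correlation of their deviations was 0.024 in dT and 0.026 in Bio, against -0.012 and -0.014 between runs. Of 102 library pairs within a group, 0 held identical values. Fitted values were printed for members with a count in at least 50% of dT libraries or past the threshold in any comparison. The members and lists were chosen with earlier results of these data known, and likeness between screens was chosen after the data were seen. Sequences came from RefSeq (GRCh38.p14) and positions from GENCODE v29 (Python 3.11.15, pandas 2.3.3, SciPy 1.17.1). Some cell type markers are not reported here.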

Additional observations from a re-analysis of the deposited data

Results flagged for a closer look

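The fitted drug terms of 3 members were past the threshold for a difference between the screens in edgeR, and none was in limma or from the single-drug pairs alone. Limma called 0% of all genes there, and the single-drug pairs called 0.0184% for each drug. Of the 3 members, PYCR1 and TARS3 were chosen on counts in these libraries. Differences are on the log2 scale, Bio minus dT. For FARSB the difference was 11.63 for imatinib, 9.53 for trametinib and 6.56 for YM115, for TARS3 it was 6.22 for imatinib, and for PYCR1 it was -7.39 for trametinib. Each rests on groups that were near empty in at least 1 screen.

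In the 4 Bio libraries that were left out for few detected genes, 6 members had more than 3 counts in a library and stood above the highest of the 6 Bio DMSO libraries. In run 1 of DMSO_Trametinib, RARS1 had 3428 CPM (highest DMSO library 83.9), FARSB had 2193 CPM (56.0) and VARS1 had 1501 CPM (1007). In Imatinib_Imatinib, SLC3A2 had 4249 CPM in run 1 (364), QARS1 had 319 CPM in run 2 (20.4) and TRIB3 had 4809 CPM in run 3 (3367). These libraries had 438 to 808 detected genes, and the QARS1 value was 8 counts.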

How the results depend on the processing

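The calls rest on genes with few filled libraries. With the filter of a count in at least 50% of libraries, 0 members were called in any comparison, and limma called 0 in every drug and drug-by-screen comparison. Over all genes, the 50% filter gave shares called of 0% to 1.4%. Limma called 0% of all genes, except 0.28% for YM115 in dT and 0.57% for YM115 in Bio. Without the run block the number called was 0 for trametinib in dT and in Bio, 7 for ordered pairs in dT and 15 in Bio (0.294%, 0.390%, 35.8% and 70.7% of all genes). With no filter on low counts it was 2 for trametinib and 1 for YM115 in dT, 3 for trametinib and 2 for YM115 in Bio, 1 for imatinib between screens, and 8 and 4 for pairs in dT and Bio (2.38%, 2.55%, 1.16%, 1.29%, 0.982%, 5.09% and 2.64% of all genes). DESeq2's Wald test called 1 for imatinib and 0 for trametinib in dT, 0 for trametinib and YM115 in Bio, and 4, 4 and 2 between screens for imatinib, trametinib and YM115 (3.94%, 2.39%, 5.25%, 8.84%, 14.4%, 12.8% and 16.2% of all genes). The single-drug pairs alone gave 1 for imatinib in dT and 0 in the other drug comparisons, and putting back the left-out Bio libraries gave 0 for YM115 between screens. Of all genes, the single-drug pairs called 0.0427% for imatinib, 0.0214% for trametinib and 0.0854% for YM115 in dT. They called 0% in Bio and 0.0184% for each drug between screens. With the left-out libraries put back, 7.56% of all genes were called for YM115 between screens. With 1 run left out, the number was 1 to 2 for imatinib, 0 to 1 for trametinib and 0 for YM115 in dT, 0 to 1, 0 and 0 to 1 in Bio, 1 to 3, 1 to 3 and 0 to 1 between screens, and 1 to 2 and 1 for pairs in dT and Bio. Over all genes the shares were 0.884% to 1.29%, 0.354% to 0.59% and 1.09% to 1.84% in dT. In Bio they were 1.24% to 1.91%, 0.708% to 1.16% and 0.991% to 2.47%. Between screens they were 3.02% to 4.02%, 2.28% to 2.7% and 2.9% to 3.34%. For pairs they were 0.995% to 1.72% in dT and 0.167% to 0.482% in Bio. The cause of these changes was not tested.

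The run number is shared by libraries of the same repeat, and without the block PYCR1 for trametinib in Bio had -6.37 and was not past the threshold. WARS1 for imatinib in Bio, not called in edgeR (-3.92), was past the threshold in DESeq2's Wald test (adjusted p = 0.0442) and without run 3 (edgeR adjusted p = 0.0416). It was the 1 member called in each of these settings (6.73% and 1.91% of all genes), so PYCR1 was not called for imatinib there. Without run 2, 0 members were called for imatinib in Bio (1.6% of all genes). Of 65 single estimates under 631 alternative values, 524 kept their direction and side of the threshold. The values that changed sign are log2 fold changes, in dT unless named. With DESeq2's Wald test these were SARS1 -0.094 and WARS1 -0.053 for imatinib, ATF4 -0.052 and SARS1 -0.020 for YM115. With DESeq2's size factors these were SARS1 -0.095 and WARS1 -0.054 for imatinib, ATF4 -0.051 and SARS1 -0.021 for YM115. With the 50% filter these were WARS1 -0.028 for imatinib. With limma these were DDIT3 0.64, EPRS1 0.65, PHGDH -0.43, SARS1 -0.21, SLC3A2 -0.88 and WARS1 -0.18 for imatinib, PHGDH 0.22, VARS1 0.097 and WARS1 -0.11 for trametinib, FARSA 0.47, TRIB3 0.36 and YARS1 -0.17 for YM115. With no filter on low counts these were EPRS1 0.049 and FARSA 0.027 for imatinib, PHGDH 0.025 and SHMT2 0.012 for trametinib. With no run block these were DDIT3 0.16 and WARS1 -0.079 for imatinib. With single-drug pairs only these were SHMT2 3.08 for YM115 (Bio), ASNS -0.033, VARS1 0.22 and WARS1 -3.11 for imatinib, ASNS 0.62, DDIT3 -2.59, FARSA -0.35, PHGDH 1.65, SHMT2 4.06, SLC3A2 1.03, TRIB3 -0.78, VARS1 0.68 and WARS1 -0.36 for trametinib, EPRS1 -2.14 and SARS1 -0.25 for YM115, FARSB -0.29 for trametinib (between screens). When 1 run was left out, the ranges that crossed 0 were SHMT2 -5.14 to 2.52 for YM115 (Bio), DDIT3 -0.77 to 0.46, EPRS1 -1.08 to 1.37, PHGDH -0.18 to 0.65, SARS1 -0.20 to 0.26, SLC3A2 -0.87 to 1.02, SLC7A5 -0.17 to 1.65, TRIB3 -0.55 to 0.86, VARS1 -0.92 to 0.29 and WARS1 -0.31 to 0.95 for imatinib, ASNS -1.32 to 3.04, FARSA -0.087 to 0.79, PHGDH -0.90 to 1.04, SHMT2 -0.23 to 0.011 and VARS1 -0.59 to 0.60 for trametinib, ATF4 -0.27 to 0.42, GARS1 -0.20 to 1.05, PHGDH -0.31 to 1.54, RARS1 -0.30 to 0.64, SARS1 -0.19 to 0.28, VARS1 -0.39 to 1.35 and YARS1 -0.033 to 0.49 for YM115.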
